A study of Mus musculus with 36 samples.

Results

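Circles that spanned 100000 bases or more of the genome between their ends, with both ends at exon boundaries of one gene on the same strand, made up 1165 of the 33261 circRNAs listed in the hippocampus and frontal cortex of mice over the light-dark cycle. They are called long circles here, and span means the end minus the start of the circle on GRCm38, with exon boundaries taken from the GENCODE M21 annotation. Total RNA came from adult male C57BL/6 mice (C57BL6/N in the study's methods) kept under a light-dark cycle, for which the labels name no other genotype or treatment, and was sequenced after rRNA depletion. Light-phase samples of each tissue were taken at ZT1, ZT5 and ZT9, and dark-phase samples at ZT13, ZT17 and ZT21 (ZT, hours after lights-on). Every time point had 3 replicates, which gave 18 samples per tissue and 36 in all. The labels number the replicates without naming the animals, so the p-values measure the spread between these samples.

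A circRNA is made by back-splicing, in which the donor at the end of a downstream exon is joined to the acceptor at the start of an upstream exon. The product has no free ends, resists exonucleases and accumulates in the brain, where many circles come from genes of synapses and signalling. The deposited values are counts of circular reads, which cross this head-to-tail junction. A junction read shows which 2 boundaries were joined, but not which of the exons between them the circle holds. Exon numbers and spliced lengths below therefore describe the annotated transcript between the ends and were not measured.

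The junctions of 3 long circles are shown, because their levels are compared between the tissues below and all printed bases lie in coding exons. The last 25 bases of the donor exon are in lower case and the first 25 bases of the acceptor exon, which lies upstream in the gene, are in capitals. The sequences are from the GENCODE M21 transcripts, 5′ to 3′. In each, the step from lower case to capitals is the back-splice that linear RNA of the gene does not hold.
Stk39, exon 16 to exon 2: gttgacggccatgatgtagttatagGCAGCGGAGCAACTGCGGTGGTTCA
Msra, exon 10 to exon 7: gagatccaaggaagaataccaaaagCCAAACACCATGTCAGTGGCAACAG
Meis2, exon 9 to exon 7: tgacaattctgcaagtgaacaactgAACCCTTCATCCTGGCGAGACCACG

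Depth differed between samples. The total number of circular reads was between 6754 and 73252 in the hippocampus and between 8107 and 34803 in frontal cortex, and the smallest count above 0 was 2. The library of hippocampus ZT1 replicate 3 stood apart with the highest total, and 345 long circles were found in it, against 158 in the next of the 9 light-phase samples. Circular reads of 20 hippocampus marker genes summed to 34.3 to 74.6 per 10000 in the hippocampus and to 6.1 to 32.9 in frontal cortex, with 12 of the 20 genes at 0. For 20 frontal cortex markers the sums were 17.1 to 32.4 in the hippocampus and 17.9 to 36.6 in frontal cortex, where 15 of 18 samples were above the hippocampus median. The defining cortical genes Tbr1, Fezf2 and Rorb were at 0 circular reads.

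Of the 1165 long circles, 830 were listed in the hippocampus and 696 in frontal cortex. The 361 listed in both were 43.5% of the hippocampus list and 51.9% of the frontal cortex list. Of all 33261 circRNAs, 23734 were listed in the hippocampus and 19811 in frontal cortex. These totals give nearly the same shared percentages, so the overlap is not particular to long circles. The 1165 long circles came from 404 host genes, and 1152 circles had a protein-coding host. The median span was 150380 bases, against 13534 for the 19113 multi-exon circles at exon boundaries that were shorter. Spans of 100 to 150 kb held 581 circles, and 28 circles from 21 hosts reached 400 kb or more. In all, 2046 circles of any class spanned 100 kb or more, and 56.9% of these had both ends at boundaries of one gene, against 64% of the circles under 100 kb. A further 628 lay in a gene with ends off the boundaries, 197 had no host on their strand and 56 joined boundaries of different genes.

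The same was measured in each sample, over the circles found there. In the hippocampus, 73% ± 3.29 (SD, n = 18) of the circles of 100 kb or more had both ends at boundaries of one gene, against 81.7% ± 2.14 of the shorter ones. In the frontal cortex the values were 73.8% ± 3.95 and 82.4% ± 1.86. The share was lower for the long spans in every one of the 36 samples, with a difference of -8.65 percentage points in the hippocampus and -8.59 in frontal cortex (paired permutation test, two-sided, 100000 resamples, p = 2e-05 in each tissue). After thinning to 6754 reads, the smallest total, the differences were -4.63 and -4.55 (paired permutation test, p = 0.00035 and 0.00254).

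On the annotated transcripts, long circles spanned a median of 7 exons and 991 spliced bases, against 4 exons and 598 bases for the shorter multi-exon circles. The span of 100 kb or more was thus mostly intron, and the largest intron inside a long circle had a median of 75600 bases. In 46.1% of the circles whose ends shared a transcript, 1 intron took up most of the span. The flanking introns were also long, with medians of 45187 bases upstream and 33758 bases downstream, against 7653 and 5904 for shorter circles. The rule itself selects long genes, with a median gene span of 387079 bases against 68678 for all hosts of multi-exon circles, so the long introns are a description and not a finding. The first exon was exon 2 of the transcript in 40.1% of long circles and in 25.1% of shorter ones. The start codon lay inside 23.5% of long circles and 12.4% of shorter ones. Of the long circles, 76.7% shared their acceptor and 67.3% their donor with another multi-exon circle of the host, against 53.8% and 47.6% of the shorter circles. Such shares can rise with the number of circles per host. They were not compared with those of shorter circles of the same hosts.

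A circle counts as supported here when it was found in at least 2 of the 3 replicates of one time point. This held for 192 long circles in the hippocampus, 156 in the frontal cortex, 109 in both and 239 in either, which is 20.5% of the 1165. Of the shorter multi-exon circles, 26.8% were supported, and of the 881 circles of 100 kb or more whose ends were off the boundaries of one gene, 8.06%. Support in all 3 replicates of a time point was found for 82 long circles in the hippocampus and 79 in frontal cortex. Of the long circles, 661 (56.7%) were found in a single sample, and 552 of these had 2 reads there. Only 63 long circles were found in 18 or more samples, and 12 were found in all 36. Support was less frequent at larger spans, with 23.6% at 100 to 150 kb and 21.7% at 150 to 200 kb, 14.3% at 200 to 300 kb, 13.3% at 300 to 400 kb and 14.3% of the 28 circles above that, which was not tested.

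**Figure D1:**
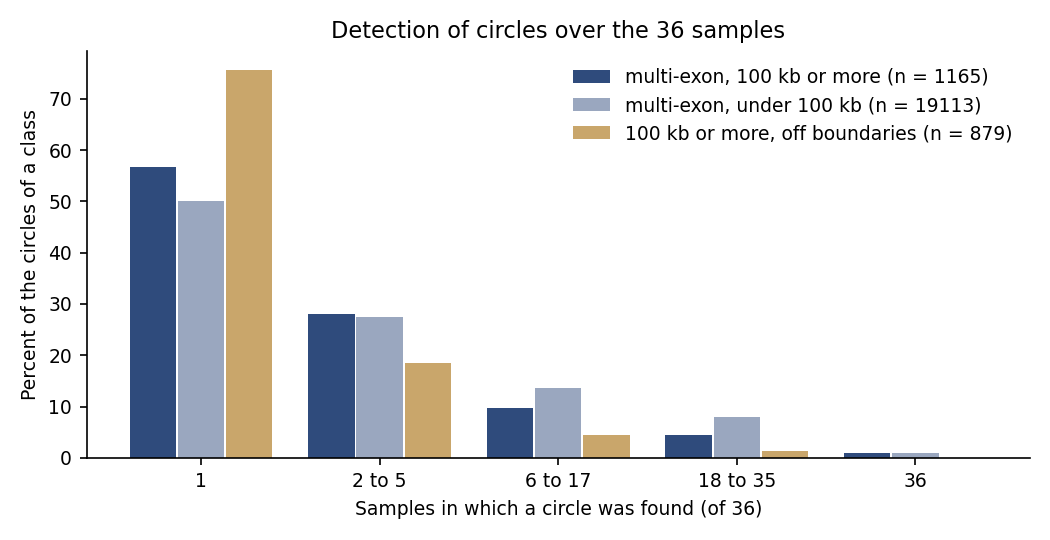
Percent of the circles of a class (y axis) by the number of the 36 samples in which they were found (x axis), for long circles, shorter multi-exon circles, and circles of 100 kb or more off the boundaries of one gene. In 1 sample were found 56.7%, 50.1% and 75.6% of the 3 classes, and in all 36 samples 1.03%, 0.978% and 0%.

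Within a sample, long circles were found again in another replicate of the time point less often than shorter multi-exon circles. In the hippocampus, 55.9% ± 9.79 (SD, n = 18) of the long and 62.6% ± 7.72 of the shorter circles of a sample were found again, a difference of -6.71 percentage points (paired permutation test, two-sided, p = 5e-05) that was negative in all but 2 samples. In the frontal cortex the shares were 55.8% ± 7.99 and 62.1% ± 4.83, a difference of -6.32 (paired permutation test, p = 0.00019) that was negative in all but 4 samples. The 3 replicates of a time point share these values among themselves, so the 18 samples are not fully independent for this measure. Among circles with exactly 2 reads in a sample, the difference was -4.68 in the hippocampus (p = 0.0103) and -6.67 in frontal cortex (p = 0.00185). Against the shorter circles of the same host genes it was -12.4 and -13.1 (paired permutation test, p = 2e-05 in each). When all samples were randomly thinned to 6754 reads, the smallest total, it was -5.63 in the hippocampus (paired permutation test, p = 0.0348) and -1.4 in frontal cortex (p = 0.485).

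**Figure D2:**
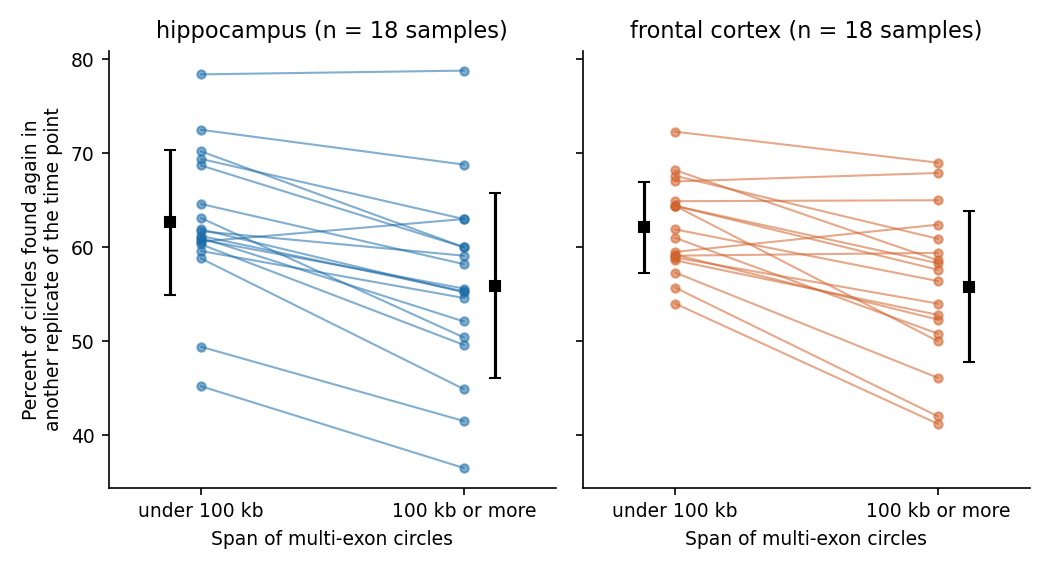
Percent of the multi-exon circles of a sample that were found again in another replicate of its time point (y axis), for circles under and over 100 kb. Each line is 1 of 18 samples of the hippocampus (left) or the frontal cortex (right), and squares with bars are mean ± SD, which for the hippocampus were 62.6 ± 7.72 and 55.9 ± 9.79 and for the frontal cortex 62.1 ± 4.83 and 55.8 ± 7.99.

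Long circles held 26500 of the 793237 circular reads (3.34%). The 12 with the most reads held 47.7% of these. Where a long circle was found, it had 5.57 ± 0.524 reads per sample in the hippocampus (SD, n = 18) and shorter multi-exon circles had 5.65 ± 0.695, a log2 difference of -0.02 (paired permutation test, two-sided, p = 0.521). In the frontal cortex the means were 6.05 ± 0.392 and 5.32 ± 0.461, a log2 difference of 0.19 that was positive in 18 of 18 samples (paired permutation test, p = 2e-05). Against shorter circles of the same host genes it was 0.03 in the frontal cortex (paired permutation test, p = 0.377) and -0.17 in the hippocampus (p = 3e-05). After thinning to the smallest total it was 0.28 in the frontal cortex (paired permutation test, p = 2e-05) and 0.10 in the hippocampus (p = 0.00341). Without the 12 circles with the most reads, an alternative chosen after seeing the data and one that by its choice lowers the mean, long circles had 3.32 ± 0.389 reads in the hippocampus and 3.27 ± 0.249 in frontal cortex. The log2 differences from the shorter circles were then -0.76 and -0.70 (paired permutation test, p = 2e-05 in each), so the direction in the frontal cortex turned.

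Atxn1 encodes ataxin-1, the protein of spinocerebellar ataxia type 1, and spans chromosome 13, 45549755 to 45965008, on the minus strand. It had 8 long circles with 6210 reads, 96.6% of its reads at exon boundaries. Of these circles, 6 began at the same acceptor, that of exon 2 (position 45956575), which took 6189 reads. The circle of exons 2 to 4 (45795509 to 45956575, 379 spliced bases over a span of 161066) had 3013 reads and was number 13 among all circRNAs by reads. It was found in all 36 samples, with 40 to 169 reads (median 70.5) in the hippocampus and 47 to 154 (median 91) in frontal cortex. The donors of exons 3, 5 and 6 were joined to the same acceptor with 750, 1166 and 1210 reads, and these circles too were found in all 36 samples. Exons 2 to 6 precede the start codon. Of the reads at this acceptor, the donor of exon 4 took 45.9% ± 4.73 (SD, n = 18) per hippocampus sample and 52% ± 5.16 per frontal cortex sample. The donor of exon 5 took 21.3% ± 3.96 and 17.2% ± 3.65, that of exon 6 20.7% ± 4.46 and 18.4% ± 3.78, and that of exon 3 11.3% ± 2.47 and 12.4% ± 2.97. The 2 circles that ended in exon 7 and would hold the start codon had 39 and 11 reads, and all 39 came from 1 hippocampus sample.

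Erc2, a scaffold of the presynaptic active zone, gave a circle of exons 13 to 19 on chromosome 14, 28040343 to 28317314, with 1057 reads over a span of 276971 bases. It too was found in all 36 samples, and had 2 to 90 reads (median 23.5) in the hippocampus and 9 to 47 (median 33.5) in frontal cortex. From the same acceptor, the donor of exon 16 gave a circle of 101038 bases with 286 reads in 35 samples.

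Stk39, the kinase SPAK that regulates cation-chloride cotransporters, had circles from the acceptor of exon 2 to the donors of exons 16 and 14, with 321 reads in 34 samples and 309 in 35. Further circles found in at least 30 samples came from the transcription factor genes Zbtb16 (260 reads) and Nfib (170 reads), from the neurotrophin receptor gene Ntrk3 (219), from Msra, which repairs oxidized methionine (212), and from Fndc3b (202), Sergef (195), Ssbp2 (181), Fars2 (180), a mitochondrial phenylalanyl-tRNA synthetase, and Cep112 (144). Between 18 and 29 samples held a further 36 long circles with 51 to 168 reads each. Among their hosts were Dgki, Tenm2, Oxr1, Stau2 (2 circles), Dennd1b, Pknox2 (2), Syt1, Gm20696, Wdr70, Tbck, Nfib, Meis2, Tasp1, Foxp1, Fer, Nbea, A230057D06Rik, Scaper, Stk3, Rims1, Lrba, Diaph2, Kcnt2, Nrxn3, Rbfox3, Galntl6, Fam172a, Crim1, Rere, Stag1 and Grm7. The circle of Nrxn3 (exons 3 to 14, 72 reads) spanned 345988 bases, so a span over 300 kb was also found repeatedly.

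The longest circles were rare. The 10 with the largest spans, 448494 to 492070 bases, came from Dmd, Cntn5, Dlg2 (2 circles), Ctnnd2, Dpp10, Sox5, Adgrb3, Diaph2 and Robo2, and had 2 to 6 reads each. Dmd, the dystrophin gene, gave the longest, of exons 2 to 9, with 2 reads in 1 frontal cortex sample. Of these 10, 8 were found in 1 sample and none in more than 3. Just above the limit of 100000 were circles of A230057D06Rik (100073 bases, 4 reads) and Dtna (100079 bases, 4 reads), and just below it circles of Csmd1 (99953 bases, 2 reads) and Grm5 (99995 bases, 2 reads).

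Of 4933 genes with a multi-exon circle, 1763 span 100000 bases or more, and 22.9% of these hosted a long circle. One long circle came from 179 hosts, 2 or 3 from 126, and 4 or more from 99. Nbea, which encodes neurobeachin, a protein of membrane trafficking, had the most, with 22 circles at 9 acceptors and 240 reads. Dgki, a diacylglycerol kinase, had 18 circles, 10 of them supported, and 373 reads. Many circles did not go with many reads. Lrp1b had 15 long circles, none supported, and 47 reads, and Dmd had 13, none supported, and 41 reads. Ctnnd2 had 12 circles, none supported, and 45 reads. Of further hosts, Dlg2 and Adgrb3 had 16 each, Adgrl3 12, Stag1, Dennd1a and Csmd1 11, and Cntn5, Mdga2, Dlgap1, Enox1 and Csmd3 10. By contrast, Zbtb16 and Meis2 had 1 circle each with 260 and 168 reads. In 41 hosts, most of the reads at exon boundaries were on long circles. They took 96.6% in Atxn1, 91.5% in Zbtb16, 92.3% in Meis2 and 91.4% in Tenm2, but 3.69% in Rims1, 5.59% in Ssbp2 and 8.06% in Dgki, whose reads were mostly on shorter circles.

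By function, 160 hosts fell into 13 lists, which held 586 long circles and 49.7% of the long reads. Beside each, the share supported in either tissue can be read against 20.5% for all long circles. Protein, receptor and lipid kinases had 65 circles from 12 hosts with 6233 reads, Stk39, Dgki and Ntrk3 among them, and 36.9% were supported. Without the lipid kinases, such as Dgki, 38 circles from 10 hosts remained, of which 36.8% were supported. Synaptic and neuronal adhesion had the most circles, 154 from 35 of the 64 genes with a multi-exon circle, of which 16.9% were supported. Tenm2, Adgrl3 and Nrxn3 were among the hosts that led its 2043 reads. Presynaptic active zone and vesicle proteins had 52 circles from 10 hosts, 1877 reads, and 26.9% supported. They were led by Erc2, by Rims1, which organizes vesicle release, by the calcium sensor gene Syt1 and by Rims2. Postsynaptic scaffolds and linkers had 61 circles from 9 hosts but 315 reads, led by Dlg2 and Magi2, and 9.84% were supported.

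The list of transcription and chromatin regulators, which does not hold Pknox2 (287 reads) or Zbtb16 (260 reads), had 68 circles from 27 hosts with 1085 reads, led by Nfib, Foxp1, Meis2 and Rere, and 25% were supported. RNA-binding and splicing factors had 29 circles from 8 hosts with 494 reads, led by Stau2 and the neuronal splicing factor gene Rbfox3, and 34.5% were supported. Glutamate receptors had 30 circles from 12 hosts with 193 reads, led by Grm7 and Grm5, and 16.7% were supported. Ion channels and their subunits had 41 circles from 19 hosts with 324 reads, led by Kcnt2 and Dpp10, and 14.6% were supported. Axon guidance genes had 27 circles from 8 hosts with 145 reads, led by the Slit receptors Robo2 and Robo1, and 14.8% were supported. Factors that switch small GTPases on or off had 22 circles with 172 reads, led by Arhgap10, and 9.09% were supported. The list of ubiquitin ligases and deubiquitinases had 18 circles with 225 reads and 27.8% supported, but most of these reads were of Lrba, a BEACH-domain protein of vesicle trafficking that does not belong to the class. Without Lrba it had 12 circles with 51 reads, led by Fbxl17, and 8.33% were supported. Receptor-type tyrosine phosphatases had 15 circles with 59 reads, 1 of them supported. Phosphodiesterases and cyclases had 4 circles with 14 reads, none supported. No test was made on these lists.

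The number of long circles per sample was 55 to 345 (median 122) in the hippocampus and 52 to 200 (median 116) in frontal cortex. The means differed by 16.8 circles (permutation test, two-sided, p = 0.341), and by 4.33 without hippocampus ZT1 replicate 3. Of the multi-exon circles found in a sample, 4.37% ± 0.402 (SD, n = 18) in the hippocampus and 4.29% ± 0.361 in frontal cortex were long (p = 0.542).

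Their share of the reads did differ. Long circles took 2.84% to 3.75% (median 3.21%) of the circular reads of a hippocampus sample and 3.18% to 3.86% (median 3.56%) of a frontal cortex sample. The mean was 3.2% ± 0.218 against 3.54% ± 0.203 (SD, n = 18), a difference of -0.34 percentage points (permutation test, two-sided, p = 4e-05), though the ranges overlapped. The hippocampus mean was lower at each of the 6 time points, with differences of -0.55 to -0.191 points. In both tissues the sample with the lowest total of circular reads had the highest share, and after thinning to 6754 reads the difference was -0.42 (permutation test, p = 0.00207). The 12 circles with the most reads took 1.48% ± 0.18 and 1.84% ± 0.218. All other long circles took 1.71% ± 0.153 and 1.7% ± 0.147, a difference of 0.01 (permutation test, p = 0.789), so the call was lost without the 12. Bulk RNA does not tell fewer cells of a type from less RNA per cell, and a share of circular reads also moves with all other circles.

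**Figure D3:**
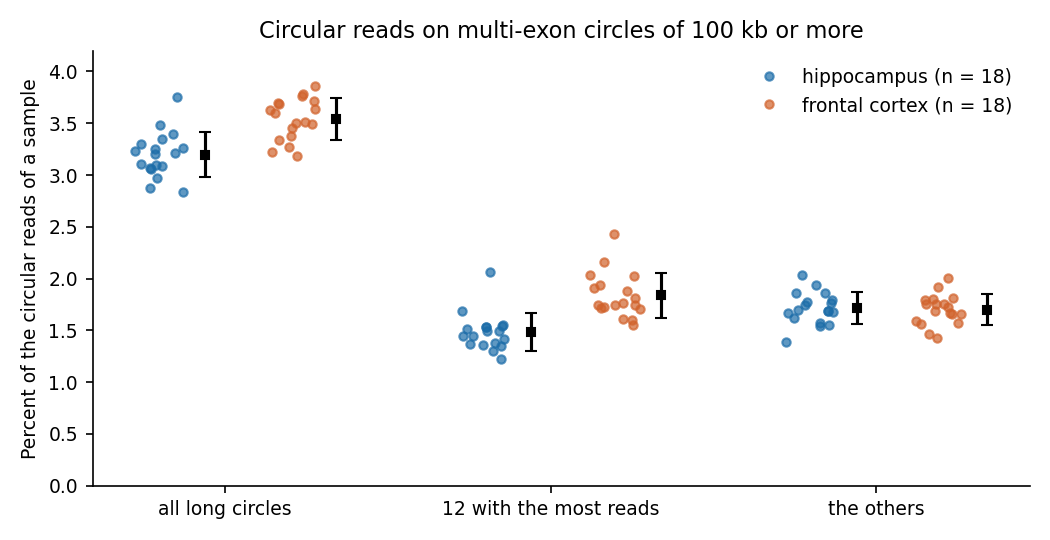
Percent of the circular reads of a sample (y axis) on all long circles, on the 12 with the most reads, and on all the others. Points are samples, 18 per tissue, and squares with bars are mean ± SD, with 3.2 ± 0.218 in the hippocampus against 3.54 ± 0.203 in the frontal cortex for all long circles.

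Single circles were tested between the tissues with edgeR over all 36 samples. Of 710 circRNAs with enough reads to test, 217 (30.6%) passed an adjusted p of 0.05, 117 (16.5%) of them higher in the hippocampus and 100 (14.1%) higher in frontal cortex. Only 21 of the 1165 long circles had enough reads, and 8 of these passed, to be read against the 30.6% of all circRNAs tested. Of the 8, 1 was higher in the hippocampus and 7 in frontal cortex. DESeq2 called 2 and 7 of the 21 long circles, and over all circRNAs 127 and 112 of 710. With no filter on low counts 6 and 8 of 239 long circles were called, and over all circRNAs 202 and 144 of 6656. The median log2 difference of all circRNAs was then 0.15, against 0.02 with the filter. Those of the 8 described below are of Atxn1, Erc2, Stk39, Meis2 and Msra. Levels below are reads per 10000 circular reads of the sample, and differences are log2 of hippocampus over frontal cortex with their standard errors and adjusted p-values from edgeR.

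Of Atxn1, the circle of exons 2 to 4 had 22.7 to 59.2 (median 33.2) in the hippocampus and 38.8 to 97.4 (median 44.1) in frontal cortex. It was lower in the hippocampus by a log2 difference of -0.49 ± 0.09 (adjusted p = 0.000135), and the frontal cortex mean was higher at all 6 time points, with overlapping ranges. The circle of exons 2 to 3 differed by -0.46 ± 0.13 (adjusted p = 0.00658), a call that was lost with no filter on low counts (adjusted p = 0.25). The circles of exons 2 to 5 and 2 to 6, from the same acceptor, had values of 0.02 ± 0.10 and -0.14 ± 0.12 (adjusted p = 0.957 and 0.417). Whether the 4 circles differed from each other in this was not tested.

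The Erc2 circle of exons 13 to 19 had 2.96 to 13.4 (median 10.6) in the hippocampus and 11.1 to 21.6 (median 16.3) in frontal cortex. All 18 frontal cortex samples were above the hippocampus median, and the difference was -0.60 ± 0.11 (adjusted p = 0.000127). The shorter Erc2 circle from the same acceptor, of exons 13 to 16, had a value of 0.21 ± 0.20 (adjusted p = 0.467). The Stk39 circle of exons 2 to 16 had 0 to 7.29 (median 2.2) and 2.48 to 11.1 (median 5.37), a difference of -1.17 ± 0.25 (adjusted p = 0.000397), again with all 18 frontal cortex samples above the hippocampus median.

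Meis2 encodes a TALE homeodomain transcription factor. Its single long circle, of exons 7 to 9 on chromosome 2, 115921672 to 116049198, was found in 9 hippocampus and 16 frontal cortex samples. It had 0 to 5.47 (median 0.501) and 0 to 5.97 (median 3.5), a log2 difference of -2.29 ± 0.52 (adjusted p = 0.00103), and -3.06 without hippocampus ZT5 replicate 1, which held the highest hippocampus level. Fitted values of circles with time points near 0 reads depend on the prior count. Meis2 is also expressed in the striatum. Circular reads of 15 striatum marker symbols summed to 0.877 to 7.12 (median 3.27) in the hippocampus and 1.24 to 9.27 (median 5.1) in frontal cortex, where 14 of 18 samples were above the hippocampus median. Of these symbols 10 were at 0, among them Drd1, Drd2, Adora2a and Ppp1r1b. The symbols at 0 also include Ido1 and Indo, an older symbol of the same gene. The part of these markers in the result was not tested.

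The Msra circle of exons 7 to 10 on chromosome 14, 64210428 to 64313755, was the 1 long circle of the 21 tested that edgeR called higher in the hippocampus. It had 1.67 to 5.92 (median 3.43) there and 0 to 4.47 (median 1.62) in the frontal cortex, a difference of 1.13 ± 0.31 (adjusted p = 0.00528). The hippocampus mean was higher at all 6 time points. Without frontal cortex ZT9 replicate 1 the value was 1.80. Circular reads of 20 oligodendrocyte markers were also higher in most hippocampus samples, at 4.44 to 21.8 (median 11.5) against 5.51 to 12.2 (median 8.6), with Mbp and Mog at 0. Astrocyte markers were at 0 to 7.69 (median 3.13) and 0 to 4.56 (median 2.11), microglia markers at 0 to 3.41 (median 1.15) and 0 to 4.47 (median 1.49), and 9 of 10 choroid plexus markers were at 0 throughout. Their part in these results was not tested.

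**Figure D4:**
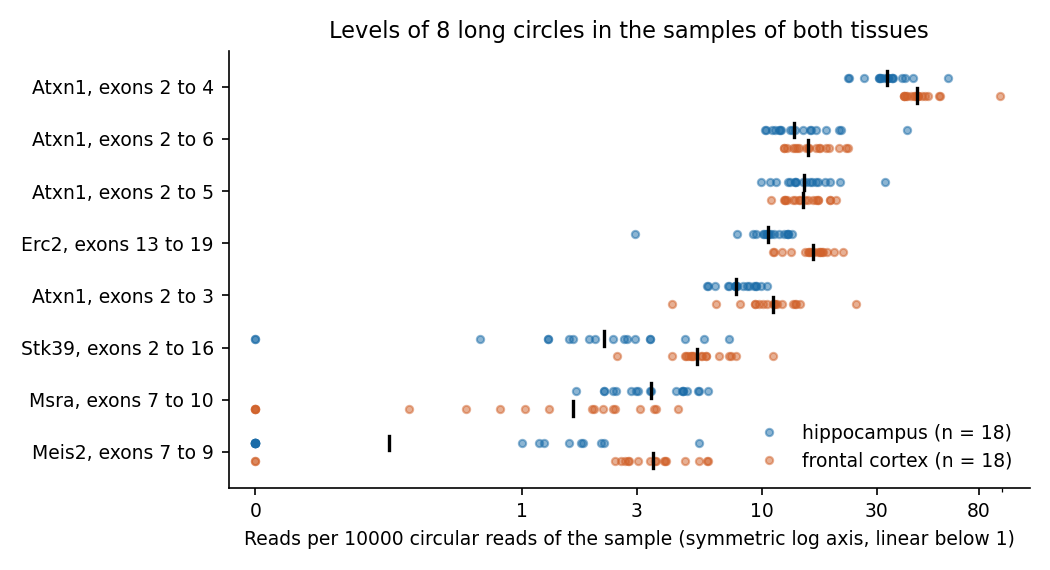
Reads per 10000 circular reads of a sample (x axis, symmetric log scale, linear below 1) for 8 long circles of Atxn1, Erc2, Stk39, Msra and Meis2 (y axis). Points are the 18 samples of the hippocampus and the 18 of the frontal cortex, and black bars are medians, which for Atxn1 exons 2 to 4 were 33.2 and 44.1.

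With the long circles of a host summed, 20 sums had enough reads to test among 778 sums of long or shorter circles by host, of which 232 (29.8%) passed, 124 (15.9%) higher in the hippocampus and 108 (13.9%) higher in frontal cortex. Of the 20 sums, 9 passed, 3 of them higher in the hippocampus. Those of Atxn1 (-0.31 ± 0.07, adjusted p = 0.000474), Erc2 (-0.44 ± 0.10), Stk39 (-0.85 ± 0.15) and Meis2 followed their main circles. The shorter circles of Erc2 differed by -0.05 ± 0.17 (adjusted p = 0.89) and those of Stk39 by -0.24 ± 0.10 (adjusted p = 0.0553). Those of Atxn1 differed by -1.15 ± 0.33 (adjusted p = 0.00694), and those of Meis2 were not tested. Whether long and shorter circles of a host differed from each other was not tested. With no filter on low counts the sums of Atxn1 and Erc2 were no longer called (-0.22 and -0.35, adjusted p = 0.545 and 0.531).

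Arhgap10, a GTPase-activating protein, had the largest value among the 20. Its 5 long circles had 7 reads in 3 hippocampus samples and 109 reads in 16 frontal cortex samples, or 0 to 0.95 (median 0) and 0 to 7.15 (median 2.93) per 10000. The log2 difference was -4.71 ± 0.73 (adjusted p = 1.03e-05), a fitted value that depends on the prior count. Its shorter circles were also lower in the hippocampus, with 316 against 1328 reads and a difference of -2.32 ± 0.12 (adjusted p = 2.05e-18). Pknox2, another TALE homeobox gene, had 4 long circles from the acceptor of exon 2, with 110 reads in the hippocampus and 177 in frontal cortex. They were found in 14 hippocampus and 17 frontal cortex samples, at 0 to 5.87 (median 2.18) and 0 to 8.63 (median 5.12) per 10000. The fitted difference was -1.62 ± 0.40 (adjusted p = 0.00174), a fold of 3.07, while the means were 2.43 and 4.94 per 10000. The striatum markers given above were likewise higher in most frontal cortex samples, and their part in these results was not tested.

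Higher in the hippocampus were the sums of Dgki, Msra and Tenm2. The 18 long circles of Dgki had 2.96 to 11.8 (median 5.08) and 0.895 to 7.94 (median 2.74), a difference of 1.00 ± 0.21 (adjusted p = 0.000373), while its shorter circles differed by 0.20 ± 0.08 (adjusted p = 0.0468). Tenm2, a teneurin adhesion protein that binds latrophilins, had 0 to 5.73 (median 3.76) and 0 to 3.45 (median 1.15), a difference of 1.18 ± 0.38 (adjusted p = 0.0144), and 1.87 without frontal cortex ZT17 replicate 2. For Msra the sum differed by 1.06 ± 0.32 (adjusted p = 0.0104) and the shorter circles by 0.99 ± 0.21. The Msra sum was 1.72 without frontal cortex ZT9 replicate 1, and with no filter it was 1.14 and missed the threshold (adjusted p = 0.052). All 3 sums had a higher hippocampus mean at 6 of 6 time points.

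**Figure D5:**
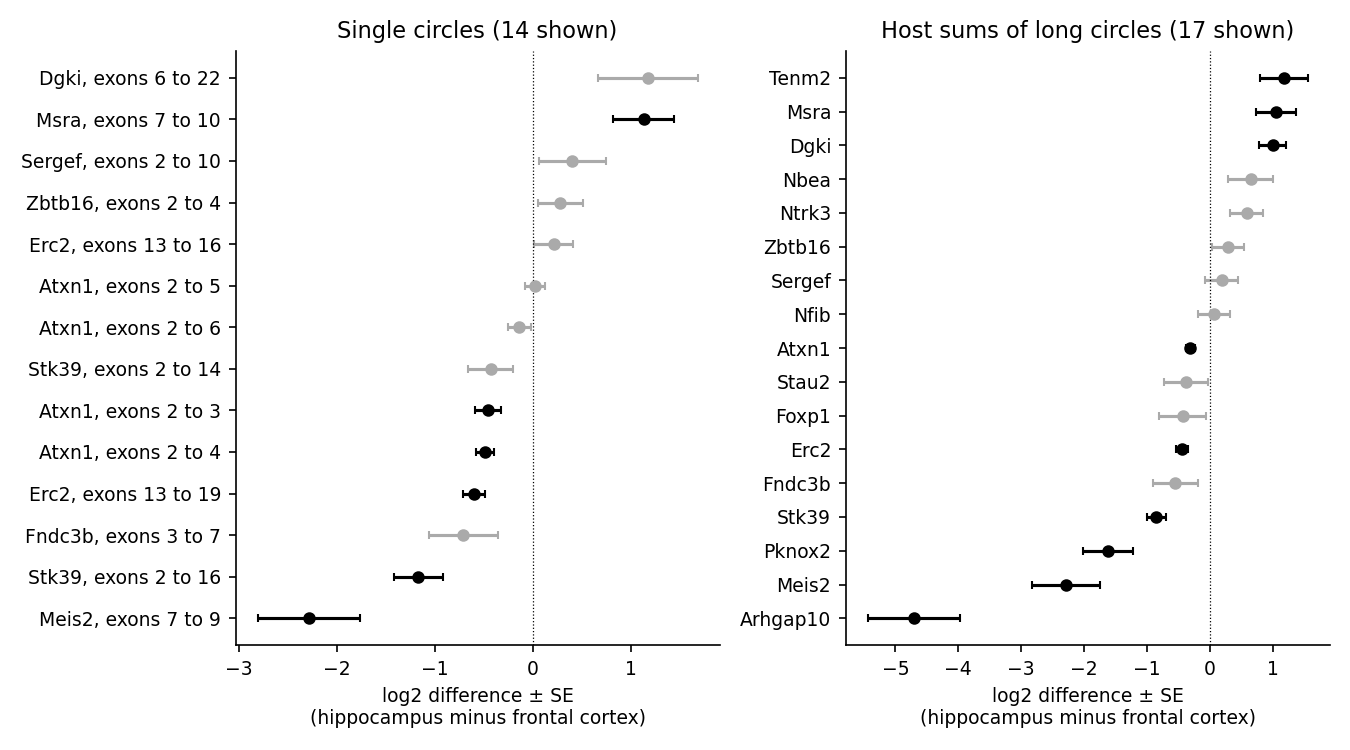
Log2 difference ± SE between hippocampus and frontal cortex from edgeR (x axis) for 14 of the 21 long circles tested (left) and 17 of the 20 host sums of long circles tested (right), with black for an adjusted p under 0.05. Values run from -2.29 (Meis2) to 1.17 (Dgki, not past the threshold) for circles, and from -4.71 (Arhgap10) to 1.18 (Tenm2) for sums.

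Listed in the hippocampus alone were 469 long circles and in the frontal cortex alone 335, nearly all with few reads. The shared percentages given above were nearly those of all 33261 circRNAs. These counts are therefore not particular to long circles. Of the 469, the 5 with the most reads were those of Atxn1 (exons 2 to 7, 39 reads in 1 sample), Tcf4 (exons 2 to 6, 35 reads in 11 samples), Chchd6 (22 reads in 1 sample), Tenm2 (exons 5 to 15, 20 reads in 4 samples) and Zfpm2 (18 reads in 6 samples). Of the 335, those with the most reads included circles of Dpp10 (exons 2 to 5, 46 reads in 10 samples), Ulk4 (14 reads in 4 samples) and Rabgap1l (11 reads in 4 samples and 10 in 2). A circle listed in 1 tissue may still be present below the count of 2 in the other. The rule had no part in these levels, but the circles were ranked by them and no test was made.

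The share of reads on long circles was not found to differ between the light and the dark phase. In the hippocampus it was 3.13% ± 0.212 (SD, n = 9) in the light and 3.26% ± 0.215 in the dark, a difference of 0.13 percentage points (exact permutation test, two-sided, p = 0.213), and of 0.0712 without hippocampus ZT13 replicate 1. In the frontal cortex it was 3.56% ± 0.195 and 3.52% ± 0.219, a difference of -0.04 (exact permutation test, p = 0.648). The difference between the tissues in this was 0.176 points (permutation test, p = 0.214).

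Of single circles, 17 long ones could be tested in the hippocampus and 15 in frontal cortex, and edgeR called none between dark and light in either tissue. Over all circRNAs it called 0 of 582 in the hippocampus (0%) and 0 of 518 in frontal cortex (0%), with 28 (4.81%) and 16 (3.09%) at an unadjusted p under 0.05. DESeq2 called 0 long circles in each. Unadjusted, 2 long circles were under 0.05 in the hippocampus. For Atxn1 exons 2 to 4 the values were 0.23 ± 0.13 in the hippocampus and -0.05 ± 0.14 in frontal cortex. Over the 6 time points edgeR called no long circle, and among all circRNAs 0 of 582 (0%) for the hippocampus and 1 of 518 (0.193%) for the frontal cortex. Of the long circles, 1 in each tissue was under an unadjusted 0.05.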

How the data were processed

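Samples of total RNA numbered 36, from hippocampus and frontal cortex. Per circRNA and sample, the authors deposited counts of reads over the head-to-tail junction, found with CIRI2 after mapping to GRCm38 with BWA, without normalization and without pooling of replicates. Of hippocampus ZT1 replicate 3 the table holds 2 columns, and 1 column that the labels do not describe was not used. Linear counts and totals of sequenced reads were not used here, so a change shared by all circRNAs cannot be seen.

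Ends were matched exactly to exon boundaries of GENCODE M21, and exons were numbered on an annotated transcript. Shares and counts per sample were compared by two-sided permutation tests, exact for 9 against 9 samples and otherwise with 100000 resamples (Python 3.11.15). Single circles supported by 2 or more replicates of a time point, and sums by host, were tested over the whole table with edgeR 4.0.16 in R 4.3.3 (TMM, filter on low counts, quasi-likelihood test, Benjamini-Hochberg adjustment over all features, threshold 0.05). Tested on simulated data, the fit between tissues (710 circRNAs, 200 changed) recovered 96.5% of 2-fold changes, and the dark-light fits 94.5% (hippocampus, 582) and 95.5% (frontal cortex, 518). The simulation set 1 dispersion of 0.05 for all circRNAs, not estimated from these data, so it does not give the power of the real fits. In these, the Dgki circle differed between tissues by 1.17 ± 0.51 (edgeR, adjusted p = 0.0799). Its dark-light standard error in the hippocampus was 0.62.

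The text names the 12 circles with the most reads, those in 18 or more samples, those past the threshold, the 10 largest spans, the leading hosts of each list, and, of the 99 hosts with 4 or more long circles, those with 10 or more. Genes that this rule names but the text does not are not reported here, and stay in all counts. The members, the 13 host lists and the 7 marker lists were chosen with earlier results of these data known. Alternatives were other scalings, no filter, DESeq2 1.42.0, thinning, spans of 150000 or more, a tolerance of 2 bases, other replicate rules, the replicate number as a block, and leaving out each sample.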

Additional observations from a re-analysis of the deposited data

Results flagged for a closer look

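In 28 comparisons of groups of 9 samples, 2 samples lay far from the others by Dixon's test, and chance alone marks about 1 in 20. In hippocampus ZT1 replicate 3, which had the highest total of circular reads, 345 long circles were found, against 158 in the next sample of the light phase. In hippocampus ZT13 replicate 1, which had the lowest total, long circles took 3.75% of the circular reads, against 3.4% in the next sample of the dark phase.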

How the results depend on the processing

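Thinned to the smallest total, the difference between tissues in long circles per sample was -1.44 and in their percent of the multi-exon circles found -0.112, both reversed but not past the threshold before or after. Reads per circle in the hippocampus reversed to 0.10 when thinned (paired permutation test, p = 0.00341) and to 0.36 at spans of 150000 or more. They were -0.76 without the 12 long circles with the most reads (paired permutation test, p = 2e-05). Against shorter circles of the same hosts they were -0.17 (paired permutation test, p = 3e-05). The thinned and the same-host values thus passed the threshold in opposite directions. In the frontal cortex they reversed to -0.70 without those 12 and were 0.03, no longer past the threshold, against shorter circles of the same hosts, and the percent found again fell to a difference of -1.4 when thinned. Without those 12 the difference between tissues in the percent of circular reads on long circles reversed to 0.0135. The cause was not tested.

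Counts of circRNAs called between dark and light in the hippocampus were 1 with total reads as scaling, 1 with DESeq2 and 4 with no filter. Over 6 time points no filter gave 14 in the hippocampus and 12 in frontal cortex, where DESeq2 gave 0. Between tissues no filter gave 346, and 14 long circles. At spans of 150000 or more there were 584 circles. Supported in either tissue were 98 long circles by all 3 replicates and 429 by 2 or more samples. Of the host sums, that of Nfib reversed, at -0.03 to 0.15 without 1 sample.

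Leaving out each sample gave these ranges: long circles per sample 4.33 to 21.7, their percent of circular reads -0.37 to -0.32, circRNAs called between tissues 212 to 245, and long circles among them 7 to 10. Calls between dark and light in the hippocampus, and over 6 time points in either tissue, ranged from 0 to 1.

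The labels do not say whether samples of one number came from the same animals in both tissues. Over 18 pairs of the same time point and number, the mean correlation of deviations from the group mean was -0.02. It was over 0.1 in 1 pair, and the mean for other numbers was 0.01. With low counts and groups of 3 samples, this check cannot tell whether animals were shared. With the replicate block 187 circRNAs and 8 long circles were called between tissues, 210 host sums in all and 9 of long circles, and no long circle between phases or time points. Of 1165 long circles, 926 lacked replicate support in both tissues and were not tested singly, and the filter on low counts left 21 of the other 239. With no filter, the calls of the Atxn1 circle of exons 2 to 3 and of the host sums of Atxn1, Erc2 and Msra were lost.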
